A study of Mus musculus with 2 samples.

Results

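The cells described here are the endothelial cells of pancreatic tumours from KPPC mice, the cells that line blood and lymph vessels. They were taken from 2 single-cell RNA libraries, 1 of a vehicle-treated tumour sample and 1 of a sample treated with takinib. In total, 623 endothelial cells were found among 36662 kept cells, 560 of 9872 in vehicle and 63 of 26790 in takinib. Because vehicle holds most of them, the description rests mainly on that library.

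KPPC is the name the labels use for the mice, a strain that develops pancreatic tumours, and the labels state neither its alleles nor a Cre driver. All mice were 6 weeks old, and treatment lasted 14 days. The vehicle group received vehicle alone, and the other group received takinib at 50 mg/kg, an inhibitor of the kinase TAK1, which is encoded by Map3k7 and signals to NF-kB and AP-1 factors. Tumours were digested with collagenase A and DNase-I, so a vessel cell that resists digestion is missed, and fewer recovered cells cannot be told apart from fewer vessels. The number of mice behind each library is not given in the labels. Each group has 1 library, so no difference between treatments has a replicate check and no test was run.

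Endothelial cells are held together by adherens junctions built on VE-cadherin and rest on a basement membrane of type IV collagen, laminin and perlecan. Vascular endothelial growth factor (VEGF) acts on them through Kdr, and angiopoietins act through Tek. In growing vessels, tip cells lead the sprout, secrete Angpt2 and Pdgfb and restrain their neighbours through Notch, while arterial, capillary, venous and lymphatic cells each keep a program of their own.

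Barcodes entered as kept cells from 1000 UMIs upward (unique molecular identifiers, each counting 1 captured transcript), with at least 500 genes and at most 20% mitochondrial UMIs. A kept cell counted as endothelial with at least 4 UMIs over at least 2 of the 5 genes Pecam1, Cdh5, Kdr, Plvap and Egfl7. Cells with over 1 UMI of Rgs5 (pericytes), any UMI of Epcam, Cd79a or Cd3e (epithelial, B and T cells), over 2 UMIs of C1qa, C1qb and C1qc (macrophages) or 3% or more of UMIs from S100a8 and S100a9 (neutrophils) were left out. The 5 genes alone were passed by 758 vehicle and 124 takinib cells, of which the exclusions removed 198 and 61. The rule therefore used these genes, and their levels describe the choice rather than support it.

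Endothelial cells made up 5.67% [5.22, 6.15] of kept vehicle cells and 0.235% [0.181, 0.301] of kept takinib cells. Square brackets give 95% intervals throughout, exact Clopper-Pearson for shares, exact Poisson for levels and exact conditional binomial for ratios; they cover counting error only. Against kept cells with under 3% neutrophil RNA the shares were 5.75% and 0.443%. Among the endothelial cells and the perivascular and fibroblast sets together, defined by Rgs5 and by collagen genes, they were 37.7% and 18.8%. The takinib share was lower under each of these denominators, by differing amounts. Which cells survive digestion and barcode filtering also sets these shares, and its part was not tested.

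The libraries differed in depth and quality. Vehicle endothelial cells held a median of 2247 UMIs (1004 to 21486) and 11.3% mitochondrial UMIs, and takinib endothelial cells a median of 5446 (1010 to 65259) and 2.83%. Only the takinib barcodes came filtered, none below 500 UMIs. Of the kept barcodes, 400 occurred in both libraries, 0 of them endothelial in both. A doublet caller marked 14 vehicle and 6 takinib endothelial cells. Levels below are CPM, the UMIs of a gene in the summed cells per 1000000 UMIs, a scale that weights deep cells most. A share of cells with a UMI is also given as the value expected were each cell thinned to 1000 UMIs.

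The label was checked against genes outside the rule, and vehicle cells carried them broadly. All 23 pan-endothelial genes set aside for this check were over 2-fold higher in endothelial cells than in the other kept vehicle cells, with a median of 47.8-fold, where 16.6% of all 14094 genes measured were higher past 2-fold and the median gene stood at 1.099-fold. The median vehicle cell gave 1.28% of its UMIs to these 23 genes, and the median other kept cell 0%. Members at the limit looked alike on either side of it: the 28 vehicle cells with exactly 4 UMIs of the rule genes had a median of 14 UMIs of the 23 genes, and the 18 cells with 3 UMIs, outside, had 12. Takinib cells at the limit had low medians of the 23 genes on both sides of it. The 4 with exactly 4 UMIs had medians of 3 such UMIs and 19018.5 UMIs in all. The 5 with 3 UMIs, outside, had medians of 1 and 13207. All takinib endothelial cells had a median of 48 such UMIs.

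The rule genes had the following levels. Pecam1 (chromosome 11, 106654217 to 106750628, minus strand, in the GENCODE M21 annotation of GRCm38), a platelet and endothelial adhesion molecule, stood at 1166 CPM [1114, 1221] in vehicle and 621 CPM [556, 691] in takinib. Cdh5 (chromosome 8, 104101625 to 104144511, plus strand), which encodes VE-cadherin, had 1355 CPM [1299, 1414] and 634 CPM [568, 704]. Kdr (chromosome 5, 75932827 to 75978458, minus strand), the main signalling receptor for VEGF, had 705 CPM [664, 747] and 414 CPM [361, 472]. Of these 3 genes each was lower in takinib, and each was found in over 70% of cells in both libraries. The rule chose cells on them, and 4 UMIs are a smaller share of the deeper takinib cells, so the choice bears on both values. With every cell weighted alike, Pecam1 was at 1169 and 823 CPM, Cdh5 at 1346 and 902 and Kdr at 756 and 502. Plvap (chromosome 8, 71497765 to 71511752, minus strand), which forms the diaphragms of fenestrae and caveolae, had 1446 CPM [1388, 1506] and 1625 CPM [1519.7, 1736], close in both. Egfl7 (chromosome 2, 26580014 to 26593120, plus strand), a secreted vascular matrix protein, had 958 CPM [911, 1007] and 565 CPM [504, 632].

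Among the 23 genes outside the rule, Eng, a co-receptor for BMP and TGF-beta ligands, had 1206 CPM [1153, 1261], with 44.5 CPM in the other kept vehicle cells. The receptor phosphatase gene Ptprb had 1169.5 CPM [1117, 1224] against 20.8 CPM, and the C-type lectin gene Cd93 1106 CPM [1054, 1158] against 30.7 CPM. Emcn, an endothelial sialomucin, had 941 CPM [893, 989] against 15.9 CPM. These 4 genes were found in 84.1%, 82.7%, 78.8% and 77.7% of endothelial cells, or 64.1%, 62.5%, 58.9% and 55.1% at 1000 UMIs. In the macrophage set, which should lack them and is deeper (median 3949.5 UMIs), the shares were 6.85%, 1.36%, 7.44% and 1.19%.

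**Figure D1:**
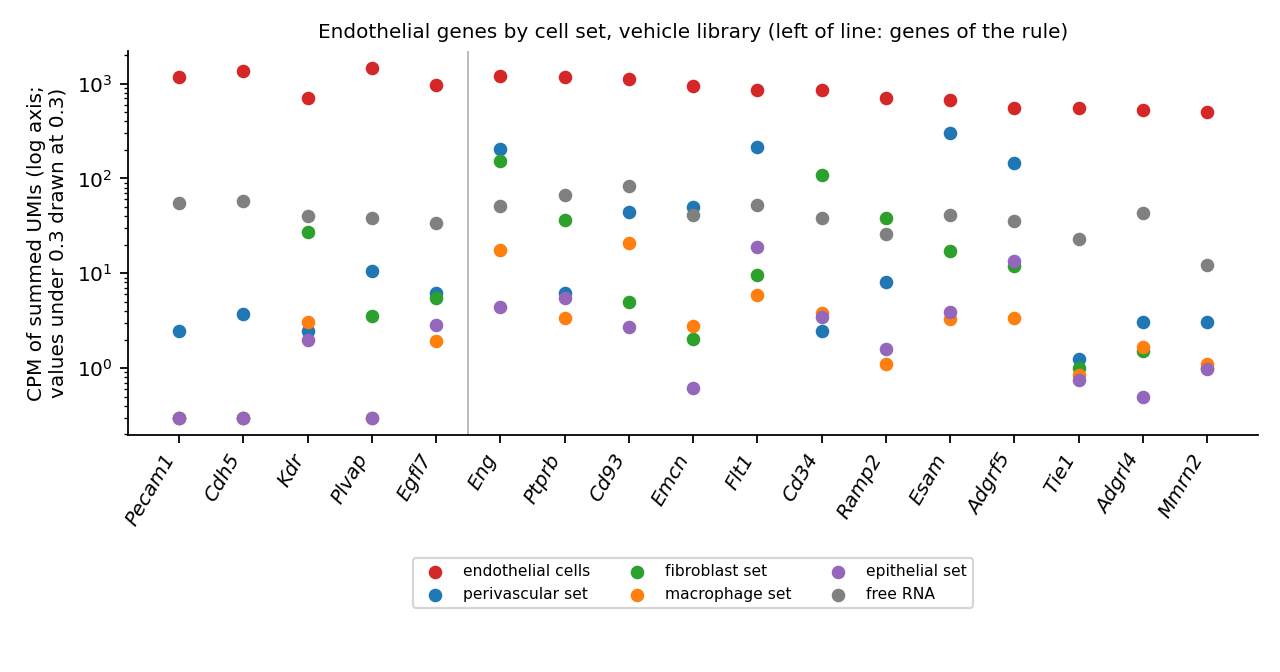
Levels (CPM of summed UMIs, log axis) of the 5 rule genes and the 12 pan-endothelial genes with most UMIs in endothelial cells, in 4 other cell sets and in free RNA (barcodes under 100 UMIs) of the vehicle library, 1 point a set. Endothelial cells stand above every other set for each gene, and Eng is also in the perivascular set at 204 CPM; Pecam1, Cdh5 and Plvap were used to keep endothelial cells out of the sets.

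Ranked by fold over the other kept vehicle cells among genes of at least 200 CPM, the first was an immunoglobulin segment, Igkv1-122, whose UMIs all came from 1 cell. After it came Myct1 (77.6-fold [64.2, 94.2]), Cdh5, Gpihbp1 (76.6-fold [61.8, 95.5]), Robo4 (70.9-fold [58.99, 85.5]), Aplnr (69.1-fold [59.7, 80.2]) and Tie1 (68.3-fold [60.2, 77.6]). Gpihbp1 carries lipoprotein lipase across capillary cells, Robo4 is an endothelial Roundabout receptor, and Aplnr is the receptor of apelin. The rest of the first 15 were Mmrn2, Adgrl4, Plvap, Grrp1, Cldn5, Arhgef15, Egfl7 and Prnd, each between 62.6- and 67.7-fold. Prnd was found in 22.7% of cells and Gpihbp1 in 19.5%, against 71.2% for Tie1.

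Because these genes share a cell type, their promoters are shown here for the short ETS-family core that endothelial promoters are known for. RefSeq promoters on GRCm38.p6, 300 bases from 250 before to 50 after the start, matched 15 of the 28 rule and pan-endothelial genes, with 18 promoters. The 3 printed are the one with the most copies of AGGAAG (Egfl7, 3 copies), one of those with 2 copies (Tie1) and that of the rule gene Kdr, with 0. Capitals mark AGGAAG or its reverse complement CTTCCT.
Egfl7 chr2:26580833-26581132 (plus strand): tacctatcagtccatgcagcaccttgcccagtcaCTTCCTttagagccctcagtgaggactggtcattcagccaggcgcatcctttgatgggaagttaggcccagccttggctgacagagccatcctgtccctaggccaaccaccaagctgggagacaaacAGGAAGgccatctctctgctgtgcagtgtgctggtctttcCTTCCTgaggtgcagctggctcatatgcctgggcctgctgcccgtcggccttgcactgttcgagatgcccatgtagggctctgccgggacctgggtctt
Tie1 chr4:118489800-118490099 (minus strand): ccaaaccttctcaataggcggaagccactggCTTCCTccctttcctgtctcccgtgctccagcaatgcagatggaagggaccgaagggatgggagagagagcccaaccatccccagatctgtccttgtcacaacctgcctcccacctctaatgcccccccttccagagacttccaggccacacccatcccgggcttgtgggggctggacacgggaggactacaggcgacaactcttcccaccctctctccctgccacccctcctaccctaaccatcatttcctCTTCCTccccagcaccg
Kdr chr5:75978406-75978705 (minus strand): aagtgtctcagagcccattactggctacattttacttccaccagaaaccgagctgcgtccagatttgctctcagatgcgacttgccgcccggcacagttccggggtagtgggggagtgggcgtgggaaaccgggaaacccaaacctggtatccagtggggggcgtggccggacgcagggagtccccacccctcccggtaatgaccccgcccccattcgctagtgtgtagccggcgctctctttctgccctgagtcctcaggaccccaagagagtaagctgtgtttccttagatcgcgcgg

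AGGAAG, read on both strands, was present in 66.7% against 35.4% of all 32851 promoters of this length in the table. Of the 7 words searched, the longer forms CAGGAAG and ACAGGAAG, which contain it, stood at 44.4% against 13.3% and 22.2% against 3.58%. The bare core GGAA was near saturation, at 94.4% against 95.98%. CCGGAAG was at 0% against 8.86%, ACTTCC, which overlaps AGGAAG where the letters GGAA are shared, at 38.9% against 23.8%, and GATAAG at 11.1% against 7.44%. Egfl7 adds 3 promoters to the 18 and Adgrf5 adds 2, base composition was not matched, and a match is a description of letters, not a bound site.

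Of 25 endothelial transcription factor genes, 23 were over 2-fold higher in vehicle endothelial cells than in the other kept cells, and none was lower by as much. Ets1 stood at 706 CPM [665, 748], 12.6-fold above the other cells. Sox18 and Sox17, SoxF factors of vessel formation, had 592 CPM [555, 631] and 170.0 CPM [150.4, 192], 59.8-fold and 57.98-fold above. Epas1, which encodes HIF-2alpha, had 543 CPM [507, 580.1]. Klf2, a factor induced by flow, had 395 CPM [365, 427] but only 3.595-fold above the other cells, which carried 109.9 CPM of it.

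The basement membrane was a large part of the profile: 16 of 18 genes were over 2-fold higher than in the other kept vehicle cells, and together they held 29949.9 CPM. Col4a1 and Col4a2, the chains of type IV collagen, had 5987 CPM [5867, 6108] and 3606 CPM [3513, 3700.2], against 472 and 281 CPM in the other cells. Hspg2, perlecan, had 899.7 CPM [854, 948] and Nid1, which links laminin to collagen, 634 CPM [595, 674]. The matricellular genes Igfbp7 and Sparc stood at 8448 CPM [8305.5, 8592] and 4710.1 CPM [4604, 4818]. By contrast all 10 matrix genes of fibroblasts were over 2-fold lower than in the other cells, with Col1a1 at 163 against 865 CPM.

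Of 19 junction genes, 13 were over 2-fold higher in endothelial cells and 2 over 2-fold lower. The list holds the rule genes Cdh5 and Pecam1, whose place among the higher ones was set by the choice. Esam, an immunoglobulin-family adhesion molecule, had 679 CPM [639, 721], and Gja1, connexin 43, 409.7 CPM [379, 442]. Cldn5, the tight junction claudin of vessels, had 262 CPM [237, 288] but was found in only 28.6% of cells, or 15.6% at 1000 UMIs, with 10.6% of its counts in 1 cell. Ctnnb1, the catenin that binds cadherins in all cell types, was 2.204-fold higher.

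Of the receptors and co-receptors of VEGF and angiopoietins, 9 of 9 were over 2-fold higher than in the other kept vehicle cells, by a median of 30.8-fold. Kdr among them is a rule gene, so its value was set in part by the choice. Flt1, the decoy receptor of VEGF, had 849.5 CPM [805, 896] and was also at 212 CPM in 38.7% of perivascular cells. Tie1 had 551 CPM [515, 589] and Tek, the angiopoietin receptor, 194 CPM [173, 217]. The co-receptors Nrp1 and Nrp2 were shared more widely, at 374 and 316 CPM in endothelial cells and 229.9 and 122 CPM in the perivascular set, and Nrp1 was found in 53.4% and 54.3% of these cells. The ligands differed in where they lay. Vegfa had 13.2 CPM [8.16, 20.1] in endothelial cells, 174 CPM in the epithelial set, 78.1 in the macrophage set and 95.2 in free RNA, which is above the endothelial level. Vegfc, the ligand of the lymphatic receptor Flt4, was at 50.2 CPM in endothelial and 29.1 CPM in fibroblast cells. Angpt2, the antagonist ligand of Tek, was found in endothelial cells (135 CPM [117, 154]) and, at 50.1 CPM, perivascular cells. Angpt1, the activating ligand, was at 57.2 CPM in fibroblasts and at 0.627 CPM, 1 count, in endothelial cells.

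Some paracrine pairs split in part between vessel and wall cells. Pdgfb, which recruits pericytes, had 234 CPM [211, 259] in endothelial and 6.18 CPM in perivascular cells, and its receptor Pdgfrb had 6.902 and 1243 CPM. Pdgfb was also at 85.2 CPM in the epithelial and 32.6 CPM in the macrophage set. Edn1, endothelin, had 84.7 CPM [71.02, 100.3] in endothelial cells, while its receptors Ednra and Ednrb stood at 307 and 718 CPM in perivascular cells. Ednrb was also at 105 CPM in endothelial cells. Apln and its receptor Aplnr were both endothelial, at 215 CPM [192, 239] and 413 CPM, where no other set passed 11.04 CPM of either and free RNA held 13.8 and 7.68 CPM. Cxcl12 had 206 CPM [184, 229] in endothelial and 131 CPM in fibroblast cells.

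Of 14 Notch pathway genes, 8 were over 2-fold higher in endothelial cells and 3 over 2-fold lower. The receptors Notch1 and Notch4 had 298 CPM [272, 326] and 199.5 CPM [178, 223], while Notch3, the receptor of mural cells, had 1.25 CPM against 721 in the perivascular set. The ligands Dll4 and Jag2 had 173 CPM [153, 194] and 104 CPM [88.3, 121] and were at 0 counts in the perivascular set. Jag1 did not follow them: it had 90.3 CPM in endothelial, 165 in perivascular and 112 in epithelial cells. Ephb4, the venous receptor, and its ligand Efnb2 had 188 CPM [168, 211] and 150.0 CPM [132, 170.2].

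**Figure D2:**
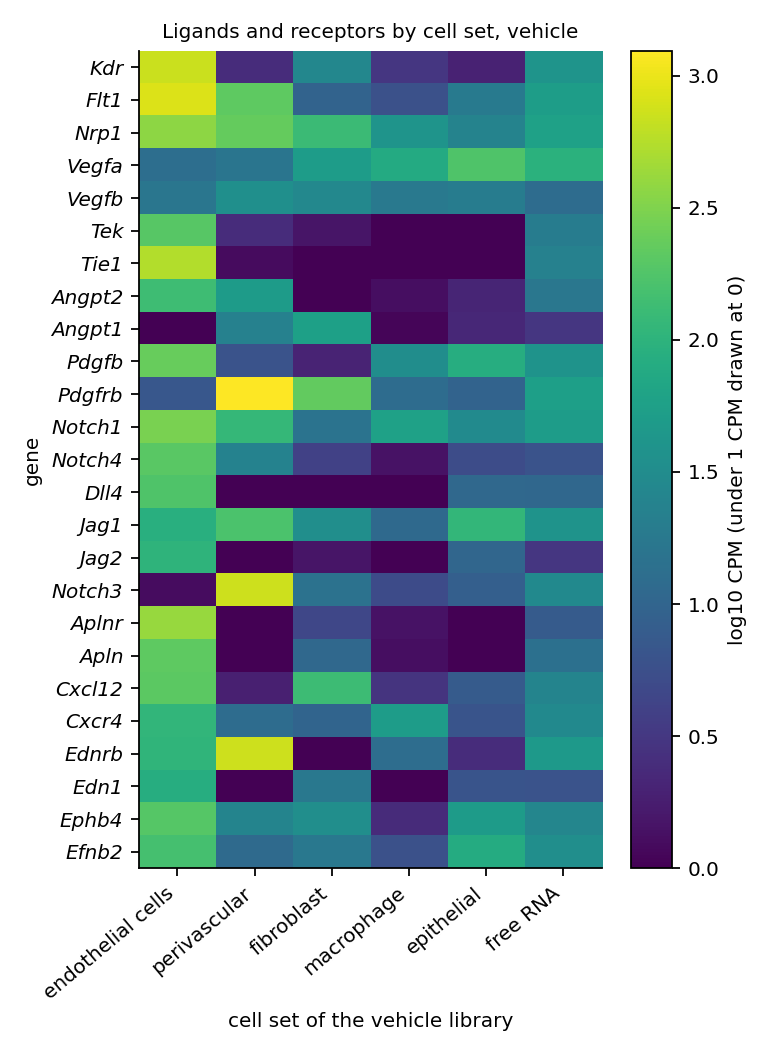
Levels (log10 CPM, values under 1 CPM drawn at 0) of 25 ligand and receptor genes, 1 row a gene, in the endothelial cells, 4 comparison sets and free RNA of the vehicle library, 1 column each. Kdr, Tie1 and Aplnr are brightest in endothelial cells, while Pdgfrb (1243 CPM), Notch3 and Ednrb are brightest in the perivascular set and Vegfa (174 CPM) in the epithelial set.

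Genes for contact with leukocytes were present in part. Of 14 measured, 9 were over 2-fold higher than in the other kept vehicle cells and 1 over 2-fold lower. Selp, P-selectin, had 220.2 CPM [198, 245] in 22.7% of cells and Madcam1, the addressin for integrin alpha4-beta7, 112 CPM [95.9, 129] in 9.64%. Icam1 had 48.9 CPM [38.7, 61.1], 1.36-fold the other cells. Interferon-linked Ly6c1 had 914 CPM [867, 962], 35.2-fold above the others, and Ifitm3 1654 CPM [1591, 1718], 2.31-fold.

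Other signalling lists were mixed. Of 19 genes of the BMP and TGF-beta axis, 10 were over 2-fold higher than in the other kept vehicle cells and 2 over 2-fold lower. Bmpr2, a BMP receptor, had 371 CPM [342, 402], its signal carrier Smad1 346 CPM [318, 376] and the target Id3 464 CPM [431, 499]. Tgfb1, a ligand many cells make, was at 0.783-fold the other cells. Of 11 coagulation genes measured, 7 were over 2-fold higher and 2 over 2-fold lower. Thbd, thrombomodulin, had 181 CPM [161, 203], and Vwf, the platelet-binding factor of endothelial granules, 754 CPM [712, 797], 57.1-fold above the other cells. Of 24 angiocrine and paracrine genes measured, 8 were over 2-fold higher and 9 over 2-fold lower than in the other kept vehicle cells. Their median was 0.69-fold. Among them Kitl, the ligand of Kit, had 150.0 CPM [132, 170.2].

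MHC class II genes, which present antigen to CD4 T cells, were low: all 7 were over 2-fold below the other kept vehicle cells, where 20.1% of genes were lower past 2-fold. Cd74 had 377 CPM [348, 408] in endothelial cells, 5207 CPM in the others and 2771 CPM in free RNA, and it was found in 40.4% of endothelial cells and 42.9% of the epithelial set. Macrophage markers gave a measure of foreign RNA. All 12 were below the other cells past 2-fold, where the rule itself limited C1qa, C1qb and C1qc. Even so, Lyz2 was found in 67.5% of endothelial cells, at 524 CPM, and in 63.8% of the epithelial set (median 5638 UMIs), with 5549 CPM in free RNA. The shares were close to those of the deeper epithelial cells, and no expression is read from them. MHC class I genes were near the other cells, with B2m at 1395 CPM [1338, 1455], 1.201-fold.

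Vehicle endothelial cells were next grouped by subset genes, a cell entering a subset with at least 3 UMIs over at least 2 of its genes. The limit favours deep cells and a cell may enter several, so shares depend on depth. The subset genes describe the choice; the other genes below did not set it. Of 560 cells, 143 entered none, at a median of 1746 UMIs, and 142 entered 2 or more.

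The venous subset held 173 of 560 cells, 30.9% [27.1, 34.9]. It was chosen on Ackr1, Nr2f2, Sele, Selp and Vwf. Outside those genes Madcam1 was at 275 against 14.99 CPM, 18.3-fold [10.8, 33.5] in the subset and the remaining endothelial cells. Il1r1, the interleukin-1 receptor, was at 113 against 33.98 CPM, 3.32-fold [2.17, 5.18], Npr1, a natriuretic peptide receptor, at 97.8 against 20.99 CPM, 4.66-fold [2.79, 8.08] and Icam1 at 80.9 against 29.98 CPM, 2.699-fold [1.68, 4.41]. Efnb2, Dll4 and Notch4 were lower in it, at 0.261-, 0.393- and 0.503-fold of the rest. Madcam1 and Icam1, both ligands for leukocyte integrins, were thus higher beside the venous genes.

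The arterial subset held 73 of 560 cells, 13.04% [10.4, 16.1] and used Bmx, Gja4, Gja5, Hey1, Sema3g and Sox17. Efnb2, the arterial ephrin, was at 365 against 109 CPM, 3.35-fold [2.55, 4.37] and Jag1 at 219.8 against 65.7 CPM, 3.34-fold [2.35, 4.73]. Fbln5, an elastic fibre protein, was at 369 against 91.9 CPM, 4.02-fold [3.04, 5.296], and Slc45a4, a transporter, at 129.5 against 11.9 CPM, 10.8-fold [5.798, 21.1]. Eln, elastin, was at 443 against 66.5 CPM, 6.67-fold [5.01, 8.91], but 44.2% of its counts in the subset came from 1 cell. Nr2f2, the venous factor, was at 0.239-fold and Nrp2 at 0.392-fold of the rest. Klf2 was at 581 against 360.0 CPM, 1.61-fold [1.33, 1.94].

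The capillary subset held 167 of 560 cells, 29.8% [26.1, 33.8] and used Fabp4, Rgcc, Gpihbp1, Cd36, Cd300lg, Btnl9 and Car4. The tip subset held 136 of 560 cells, 24.3% [20.8, 28.1] and used Apln, Esm1, Angpt2, Cxcr4, Pgf, Kcne3 and Trp53i11. They overlapped: 74 cells were in both, 44.3% of the capillary and 54.4% of the tip subset. Esm1 and Apln helped choose the tip subset and Gpihbp1 the capillary one, so their levels in the other subset restate this overlap. Esm1 was at 556 against 98.98 CPM, 5.62-fold [4.46, 7.14] and Apln at 407 against 80.9 CPM, 5.03-fold [3.88, 6.57] in the capillary subset. Gpihbp1 was at 439.9 against 70.1 CPM, 6.27-fold [4.803, 8.29] in the tip subset. Cxcl12 was at 423 against 54.3 CPM, 7.800-fold [5.77, 10.7] in the capillary subset. Prnd, a prion-like protein, was higher in each, at 3.84- and 4.37-fold.

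In the tip subset the potassium channel gene Kcnj2 was at 179.7 against 31.1 CPM, 5.79-fold [3.85, 8.93] and Pdgfb at 388 against 142 CPM, 2.73-fold [2.203, 3.38]. Adm, adrenomedullin, was at 153 against 10.02 CPM, 15.3-fold [7.93, 32.9], with 42.9% of counts from 1 cell. Klf2 was lower, at 191 against 517 CPM, 0.3703-fold [0.2997, 0.454], and so was the prostaglandin transporter Slco2a1, at 255 against 917 CPM, 0.278-fold [0.233, 0.331]. Tip cells were deeper than the other endothelial cells, with a median of 3170.5 against 2086.5 UMIs.

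The lymphatic subset was the most distinct. It held 31 of 560 cells, 5.54% [3.79, 7.77], with a median of 22 UMIs over Ccl21a, Flt4, Lyve1, Mmrn1, Prox1 and Reln, 0 cells exactly at the limit and 2 cells 1 UMI under it. Sema3d and Sema3a, repulsive guidance cues, were at 523 against 2.01 CPM, 260.1-fold [84.4, 1301] and 475 against 4.03 CPM, 118-fold [50.5, 337]. The polarity gene Pard6g was at 291 against 0.671 CPM, 434-fold [72.1, 17686], with 1 count in the remaining cells. Hgf had 28 counts in it and 0 in the rest, at least 135-fold higher with the floor at 3 counts over the rest, and 67.9% of them came from 1 cell. Blood-vessel genes were lower. Sparc was at 427 against 5006 CPM, 0.0852-fold [0.0618, 0.114], Igfbp7 at 814 against 8976 CPM, 0.0907-fold [0.0723, 0.112], Col4a1 at 1095 against 6325 CPM, 0.173-fold [0.143, 0.208], Emcn at 136 against 996 CPM, 0.136-fold [0.0743, 0.229] and Vwf at 0.121-fold.

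The cycling subset held 16 of 560 cells, 2.86% [1.64, 4.598], deeper than the others at a median of 4297 UMIs. Hmgb2, a chromatin protein of dividing cells, was at 952 against 82.1 CPM, 11.6-fold [8.64, 15.5] and Stmn1, a regulator of microtubules, at 301 against 54.3 CPM, 5.55-fold [3.399, 8.78]. Selp was at 615 against 199 CPM, 3.097-fold [2.25, 4.18] in it, with 27.5% of its counts there from 1 cell, and 8 of the 16 cells were also venous. The venous subset genes together were near the rest, at 1.42 against 1.28 UMIs per 1000, and the capillary ones at 2.42 against 1.57.

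**Figure D3:**
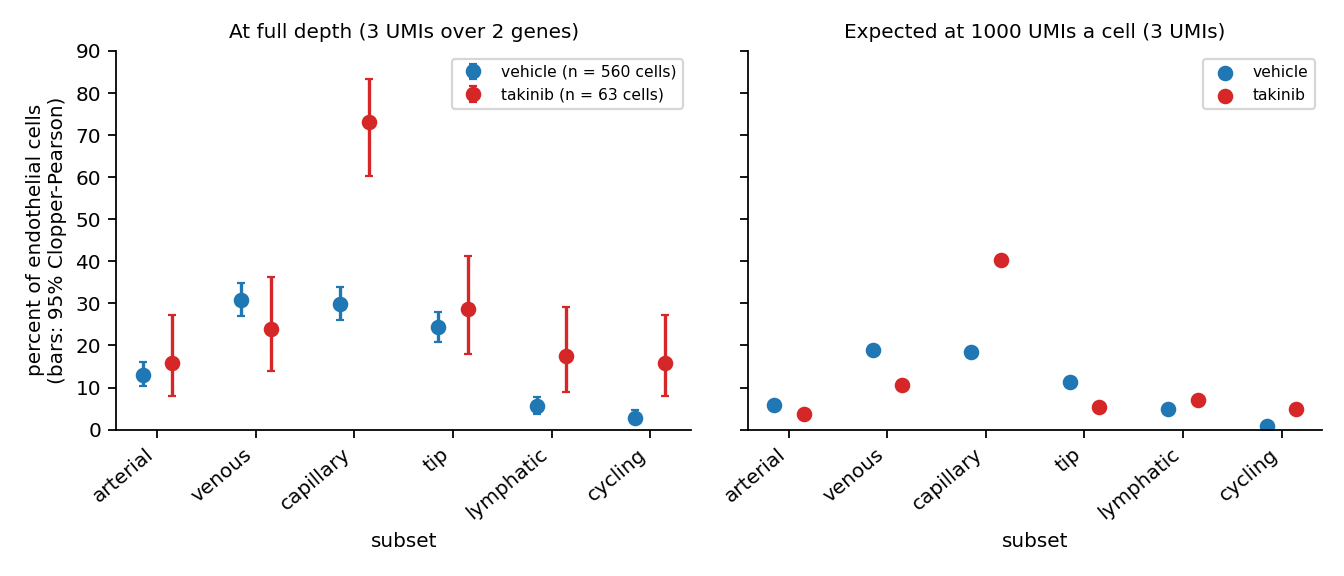
Percent of endothelial cells in each of 6 subsets, vehicle in blue (560 cells) and takinib in red (63 cells). On the left are shares at full depth with 95% Clopper-Pearson intervals, and on the right the share expected to reach 3 UMIs of the subset genes at 1000 UMIs a cell, without the limit on genes. The capillary share is higher in takinib in both panels (29.8% and 73.02% at full depth), while the tip share is higher in takinib on the left and lower on the right.

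How far genes varied between vehicle cells was measured as variance over that of Poisson counts at each cell's depth. Over 1364 genes with at least 200 counts the median was 1.26, and 60 genes were above 5. Some leading genes were set by few cells: Jchain, of plasma cells, reached 261 with 295 of its 332 counts in 1 cell, and Col3a1 had 38.02% of its counts in 1 cell. Ccl21a (31.6) and Mmrn1 (13.8) followed the lymphatic cells, which were chosen in part on them. Fabp4, a fatty acid carrier, reached 16.1 in 46.96% of cells with 5.19% of counts in its highest cell. Col4a1 reached 11.3 although 96.1% of cells carried it. Gm42418, Malat1, AY036118 and Lars2, which are abundant in most single-cell libraries, were also among the largest values, along with Spp1, Col1a1, Clu, Cd74, Eln, Tmsb4x and Tmsb10.

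The vehicle library mixed cells of female and male origin. Of 560 endothelial cells, 48 held Xist and no Y-linked UMI, 217 held Y-linked UMIs and no Xist, 6 held both and 289 neither. In takinib 54 of 63 held Xist, and the sum of Y-linked UMIs was 0. These origins differ by animal as well as by sex, and the 2 cannot be told apart. Medians were 1919 UMIs in the female and 2687 in the male cells.

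Of 13 tip genes with at least 50 summed counts, 7 were over 2-fold lower and 0 higher in the female-origin vehicle cells than in the male-origin ones, where 7.95% of all genes compared were lower and 1.81% higher. Apln was at 37.2 against 281 CPM (log2 ratio -2.91 [-4.80, -1.54]), Esm1 at 55.8 against 361 CPM (log2 ratio -2.69 [-4.15, -1.55]), Angpt2 at 37.2 against 154 CPM (log2 ratio -2.05 [-3.95, -0.65]) and Pdgfb at 74.5 against 261 CPM (log2 ratio -1.81 [-3.04, -0.81]). Mcam and Dll4 were at -0.33 and -0.25 with intervals across 0, and Cd34 at 0.08. Venous genes were mixed, with 1 of 11 over 2-fold higher and 3 lower. Vwf was at 1219 against 670.2 CPM (log2 ratio 0.86 [0.58, 1.14]), Selp at 493 against 228 CPM (log2 ratio 1.12 [0.64, 1.57]), and Nr2f2 at 400.2 against 223 CPM (log2 ratio 0.85 [0.33, 1.34]), while Tmem252 was at 121 against 292 CPM (log2 ratio -1.27 [-2.20, -0.47]). Klf2, outside that list, was at 707 against 365 CPM (log2 ratio 0.96 [0.57, 1.33]). Markers of other cells were higher in part in the same female-origin cells, and their part in these values was not tested. Of 4 macrophage markers and 4 MHC class II genes measured, 1 each was over 2-fold higher, Ctss at 269.9 against 99.6 CPM (log2 ratio 1.44 [0.77, 2.07]) and H2-Aa at 233 against 98.3 CPM (log2 ratio 1.24 [0.53, 1.91]). The fibroblast gene Dcn was at 269.9 against 65.98 CPM (log2 ratio 2.03 [1.32, 2.72]), but Col1a1 at 65.1 against 212 CPM (log2 ratio -1.70 [-3.04, -0.63]). Of 3309 genes compared, 60 were over 2-fold higher and 263 over 2-fold lower in the female cells, with a median log2 ratio of -0.10. Apln rests on 4 female counts and Angpt2 on 4.

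The takinib endothelial cells were few and uneven. Of 63 cells, 5 gave under 0.2% of their UMIs to the 23 pan-endothelial genes and held 25.6% of all takinib endothelial UMIs (2 cells and 0.614% in vehicle). The deepest, of 65259 UMIs, carried 3 UMIs of those 23 genes beside 1382 of Timp1, 391 of Dcn and 397 of Sprr2 genes, and another held 541 UMIs of neutrophil granule genes. These cells met the rule but not the label. Values are therefore given also with a limit of 0.2%, chosen after seeing the data, and where it matters that value follows the main one.

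**Figure D4:**
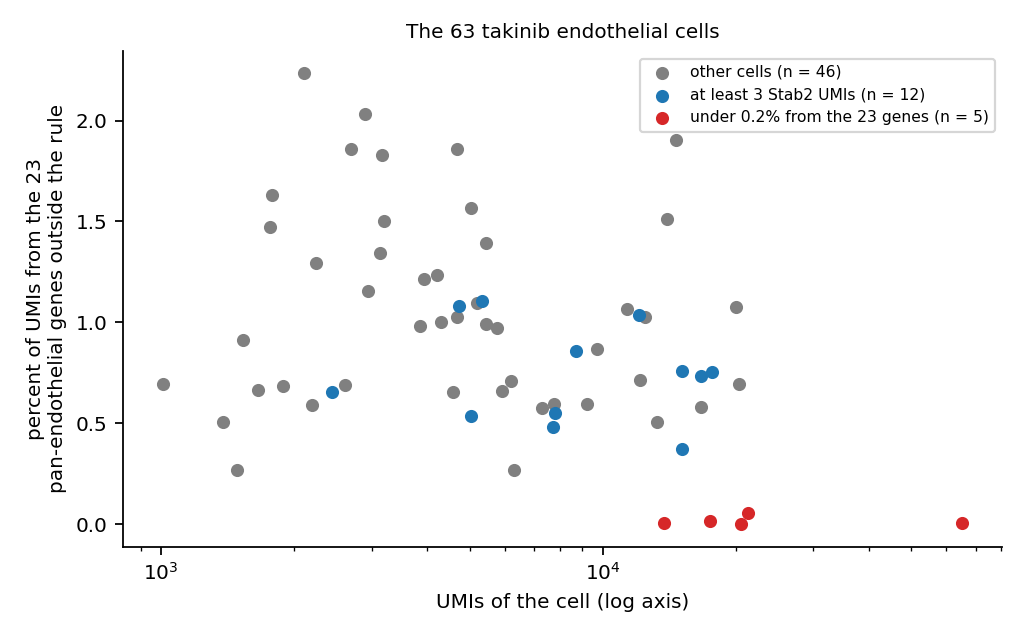
Percent of UMIs from the 23 pan-endothelial genes outside the rule against the UMIs of the cell (log axis), 1 point for each of the 63 takinib endothelial cells. The 5 red cells under 0.2% lie to the right, from 13771 to 65259 UMIs, and the 12 blue cells with at least 3 Stab2 UMIs lie among the others.

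In takinib against vehicle, 25.8% of 6408 genes with at least 50 summed counts differed by over 2-fold, 7.27% higher and 18.5% lower, and the median gene was at -0.29 on the log2 scale. Set against that median, 813 genes were higher and 660 lower past 2-fold, so the balance of directions depends on scaling. Against the 48 female-origin vehicle cells alone, 65.9% of genes past 2-fold were higher, with 2179 genes compared, where the full vehicle set gave 28.2%. Group, library, depth, barcode filter and origin of the animals all differ together and cannot be told apart.

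Endothelial identity genes were lower on this scale. Of the 23 pan-endothelial genes 0 were higher and 10 lower past 2-fold, with a median log2 ratio of -0.96. It was -0.55 with the 0.2% limit and -0.51 with every cell thinned to 1000 UMIs. The limit removes cells by these same 23 genes, so the shift under it was set in part by the choice of cells. Eng had a log2 ratio of -1.36 [-1.56, -1.17] (469 CPM in takinib) and Emcn -1.60 [-1.84, -1.37], while Ramp2, a receptor partner for adrenomedullin, had 0.02 [-0.15, 0.19]. All 9 VEGF and Tie receptors and co-receptors, the rule gene Kdr among them, were below 0, 6 past 2-fold, with a median of -1.20, or -0.79 with the limit. Nrp2 was at -1.72 [-2.16, -1.31] and Flt1 at -1.20 [-1.42, -0.99].

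Basement membrane genes were lower too, 10 of 18 past 2-fold, with a median of -1.10 (-0.71 with the limit and -0.60 when thinned). Col4a1 was at 5987 CPM in vehicle and 2412 in takinib, a log2 ratio of -1.31 [-1.40, -1.23]. Sparcl1 was at -1.62 [-1.80, -1.44] and Col15a1 at -1.56 [-1.83, -1.31]. Tip genes had a median of -1.08, with 10 of 15 lower past 2-fold. Esm1 was at -1.72 [-2.19, -1.29] and Mcam, an adhesion molecule, at -1.90 [-2.20, -1.62]. The tip median changed sign with the origin of the vehicle cells. Against the female-origin cells the median over the 8 tip genes with enough counts was 0.30, with Esm1 at 0.64 but Mcam still at -1.60.

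Capillary genes stood apart from the other endothelial lists. Their median was 0.88 over 7 genes, 3 of them higher past 2-fold, and 1.20 with the limit. Cd36, a fatty acid transporter, was at 55.2 CPM in vehicle and 406 in takinib, a log2 ratio of 2.88 [2.52, 3.25]. Gpihbp1 was at 208 and 635 CPM, 1.61 [1.39, 1.83], and in 19.5% and 61.9% of cells. Both were higher also against the female-origin vehicle cells, at 4.45 and 3.09, on 2 and 8 female-origin counts. Fabp4 had no steady direction: it was at -0.27 [-0.42, -0.12], but at 0.15 with the limit, 0.19 thinned and 0.87 against the female-origin cells. In cells, the capillary subset took 46 of 63 cells, 73.02% [60.3, 83.4] of takinib, and at 1000 UMIs 40.3% were expected to reach 3 UMIs of its genes, against 18.4% in vehicle. The tip subset was at 5.47% against 11.3% on that measure and the venous subset at 10.5% against 18.8%. Of the other kept cells, 8.22% in takinib and 2.67% in vehicle also met the limit of the capillary subset. Capillary genes summed to 1884 CPM in vehicle and 2746 in takinib endothelial cells, against 822 and 1169 in the other kept cells. The part of these surroundings in the endothelial values was not tested.

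Venous and Notch genes included low values. Selp was at 57.3 CPM, -1.94 [-2.52, -1.41], Vwf at -1.44 [-1.70, -1.20] and Jag2 at -2.11 [-3.05, -1.29]. With every cell weighted alike, Vwf was at 838 CPM in vehicle and 535 in takinib, a smaller gap. Lrg1, a venous-listed glycoprotein gene, went the other way at 0.58 [0.44, 0.71]. The fenestration and caveolae list had 0 of 10 genes past 2-fold either way and a median of -0.06.

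The remaining endothelial lists had medians on either side of the median gene. Transcription factors were at -0.70 with 0 of 21 higher and 4 lower past 2-fold, and junction genes at -0.80 with 0 of 15 higher and 3 lower. These counts of lower genes are near the 18.5% of all genes. The BMP and TGF-beta axis was at -0.59, with 1 of 15 higher and 3 lower, among them Bmp4 at -2.41 [-4.07, -1.12]. Arterial genes were at -0.81, Notch genes at -0.97 and venous genes at -0.35, and leukocyte adhesion genes at -0.01. Against the female-origin vehicle cells the arterial median turned to 0.42, over 4 genes. Lymphatic genes were at -0.20, and the lymphatic subset took 11 of 63 cells, 17.5% [9.05, 29.1], with a median of 5 UMIs of its genes, against 22 in vehicle. Those 11 cells were deep, at a median of 12085 UMIs, and at 1000 UMIs 7.06% of takinib and 4.88% of vehicle cells were expected to reach 3 UMIs of these genes. Coagulation genes had 3 of 10 higher and 3 lower, with Plat, tissue plasminogen activator, at -1.61 [-2.43, -0.89]. Interferon genes were at 0.02, where Ly6e alone of 17 was higher past 2-fold, at 1.05 [0.92, 1.19].

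The transcript of the drug's target, Map3k7, had 64 counts in vehicle endothelial cells (40.2 CPM [30.9, 51.3]) and 14 in takinib (25.9 CPM [14.1, 43.4]), a log2 ratio of -0.63 [-1.58, 0.21], not distinguishable at this depth. An inhibitor of the kinase need not alter its transcript, so this does not check the label. Tab2, which encodes a TAK1-binding protein, was at -0.54 [-1.09, -0.01]. NF-kB target genes were higher in takinib: 9 of 17 past 2-fold, 0 lower, with a median of 1.12. Nfkbia, the NF-kB inhibitor, was at 247 and 536 CPM, 1.12 [0.90, 1.34]. Ier3 was at 2.48 [2.15, 2.81] and Sod2, mitochondrial superoxide dismutase, at 2.64 (62.1 and 386 CPM). The factor genes did not share this: Nfkb1 was at -0.94 [-1.42, -0.49] and Bcl3 at -0.72 [-1.40, -0.09].

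Immediate-early genes, many of them induced within minutes of stimulation or handling, had a median of 0.51, with 6 of 17 higher and 1 lower past 2-fold. Fos was at 49.6 and 262 CPM, 2.40 [2.00, 2.82], and Dusp1, a phosphatase of MAP kinases, at 1.66 [1.36, 1.96]. Fosl2 was lower at -1.37 [-1.82, -0.94], and Klf2 was at -0.01 [-0.25, 0.21]. Of 15 angiocrine and paracrine genes measured, 4 were higher and 4 lower past 2-fold. Ccl2 had 65.8% of its takinib counts in 1 cell and Cxcl12 51.02%.

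Neutrophil RNA was higher beside these values. All 6 measured neutrophil markers were higher past 2-fold, S100a8 was found in 88.9% of takinib endothelial cells and 10% of vehicle ones, and the 9 markers summed to 237 and 4774 CPM, with 49914 in the other kept takinib cells. The rule held S100a8 and S100a9 under 3% of UMIs in each endothelial cell, so part of the gap to the other cells was set by it. Ly6g was at 0 in both. The NF-kB targets summed to 15106 CPM in the other kept takinib cells and 5166 in the endothelial ones. After subtraction of a neutrophil profile, scaled by the S100a8 and S100a9 counts, which took 3.13% of endothelial UMIs, the NF-kB median was 0.95 and 8 of 17 genes were past 2-fold. Ier3 was then at 2.23 and Nfkbia at 0.95. The same step took S100a8 to a log2 ratio of -1.38 but left the neutrophil marker Retnlg at 6.95, so it did not remove every neutrophil marker. The part of neutrophil RNA in the NF-kB values was not tested.

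Proliferation genes had a median of 1.52, 8 of 12 higher past 2-fold, and 0.96 with the 0.2% limit. Of the 5 cells under the limit, 4 carried 24 to 49 UMIs of these genes. Mki67 was at 2.13 [1.59, 2.69], or 1.91 with the limit, and the cycling subset held 10 of 63 cells (15.9%) at a median of 18764.5 UMIs, 4 of them under the limit. With the limit it held 6 of 58 cells (10.3%). Glycolysis and hypoxia genes had a median of 0.62 with 8 of 18 higher past 2-fold. Eno1 was at 1.33 [1.15, 1.52] but 0.20 with the limit, and 57.6% of its takinib counts came from 1 cell. Gapdh was at 1.66 [1.56, 1.77] and 1.05. Fibroblast matrix genes reversed, from a median of 0.88 to -0.98.

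MHC class II genes were lower, all 5 measured past 2-fold with a median of -1.92. Cd74 was at 377 and 99.7 CPM, -1.92 [-2.35, -1.52], and in the other kept cells the 7 genes summed to 10232 and 1897 CPM, lower in takinib too. The part of free RNA in this was not tested, since takinib barcodes under 500 UMIs were not analysed here. MHC class I genes had a median of 0.37, with B2m at 0.05 [-0.07, 0.17].

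**Figure D5:**
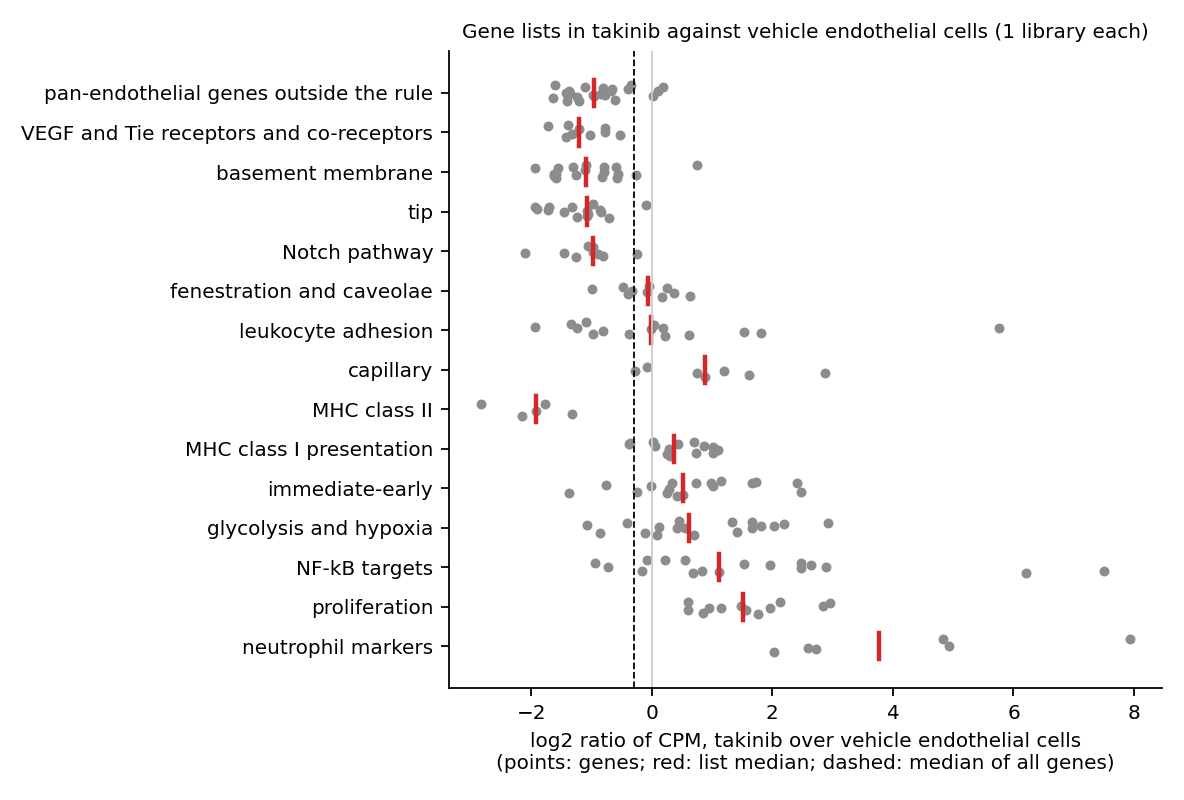
Log2 ratio of takinib over vehicle endothelial cells (1 library each) for genes with at least 50 summed counts, 1 grey point a gene, in 15 lists, with list medians in red and the median of all genes, -0.29, dashed. Receptor, basement membrane and tip lists lie left of the dashed line, and capillary, NF-kB, proliferation and neutrophil lists lie right of it.

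The 10 genes with the highest ratios were Cstdc4, U90926, Slpi, Stab2, Retnlg, Cryab, Cxcl3, Ppbp, Serpinb2 and Cxcl1, with log2 ratios from 7.50 to 9.08. Of these, U90926, Cryab and Serpinb2 had 97.97%, 98.8% and 99.5% of their counts in 1 cell, and Slpi, a protease inhibitor, 85.9%. Retnlg had 74.7% and Cxcl3 61.8% of their takinib counts in 1 cell. Cstdc4, Retnlg and Cxcl3 were also at 1245, 1822 and 1288 CPM in the other kept takinib cells, above the 339.8, 307 and 1132 CPM of the endothelial ones. Saa3, an acute-phase apolipoprotein (chromosome 7, 46711998 to 46715700, minus strand), was named after its values were seen. With the limit it was at 35.4 CPM in vehicle and 6082 in takinib, found in 52 cells, a log2 ratio of 7.43 [7.04, 7.84]. Of its 2451 counts, 3 cells held 73.6%, and the median cell held 2. The other kept takinib cells were at 16399 CPM of Saa3 and the other kept vehicle cells at 379 CPM, so the endothelial level was below that of its surroundings in both libraries.

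Stab2 (chromosome 10, 86841198 to 87008025, minus strand), a scavenger receptor of sinusoidal endothelium, differed in kind. It was at 1.03 CPM in the other kept takinib cells and 310.3 CPM in the endothelial ones, and had 2 counts in vehicle endothelial cells, a log2 ratio of 7.95 [6.07, 11.01]. Its UMIs were concentrated: 12 of 63 cells with at least 3 held 165 of 168. Those 12 held a median of 8256.5 UMIs in all, against 5040 in the other 51. Platelet genes lay with them. Ppbp, Pf4, Gp9 and Itga2b had 290 of 301 counts in these 12 cells, 11 of which carried at least 1, and 7 of the other 51 did. Vehicle endothelial cells had 39 such counts in all.

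The 10 lowest were Ctrb1, Postn, Zfp407, 2610307P16Rik, Dkk2, Col8a1, Trim16, Fxyd6, Arrdc3 and Napepld. Ctrb1, an acinar digestive enzyme, had 217 counts in vehicle and 1 in takinib (-6.20 [-11.51, -3.71]), with 236 CPM in the other kept vehicle cells. Postn and Col8a1 had 1 and 2 takinib counts. Dkk2, a Wnt pathway regulator, had 235 counts in 26.96% of vehicle cells and 5 in takinib, -4.00 [-5.63, -2.75], and was at 204 CPM in vehicle fibroblasts. Arrdc3, an arrestin-domain protein, had 256 and 9 counts, -3.27 [-4.42, -2.33]. Both stayed lower against the female-origin vehicle cells, at -4.66 and -3.16, and with the limit, at -3.57 and -3.02.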

How the data were processed

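Droplet single-cell RNA libraries were made from 1 vehicle and 1 takinib sample of KPPC pancreatic tumours. The deposited values are UMI counts per gene and barcode, not normalized. Per the file headers they came from Cell Ranger, version 4 for vehicle and 6.1.1 for takinib, while the submitters' processing notes name Cell Ranger 2.1.1 and mm10. The vehicle file lists 704261 barcodes down to 1 UMI, and the takinib file 34158 barcodes of 500 UMIs or more. Total UMIs were 80850334 and 139292875.

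Endothelial cells were chosen by the stated rule, their counts were summed within a library and scaled to counts per 1000000 UMIs (CPM). The members and the gene lists were chosen with earlier results of these data known. With 1 library a group no test was run and no p-value is given. Ratios use no pseudocount, and a count of 0 is set at a floor of 3 counts. Genes entered the treatment comparison with at least 50 summed counts, and over 2-fold counted as past the limit. Genes were named by rule: the 15 with the largest fold over other vehicle cells at 200 CPM or more, the 10 highest and 10 lowest ratios, and genes of the lists. Doublets were called with Scrublet in scanpy 1.11.5 and were kept. In vehicle the automatic limit marked 281 cells, and in takinib, where it marked 0.00373%, the 1607 highest scores were taken instead. Gene IDs were matched to GENCODE M21 for 99.6%. Python 3.11.15, numpy 2.4.6, scipy 1.17.1 and pandas 2.3.3 were used, and the scripts were tested on simulated data. Alternatives changed the barcode filter, the rule, the subset limit, the doublets, the vehicle cells by origin, the scaling, the pseudocount, the count minimum and the depth.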

Additional observations from a re-analysis of the deposited data

How the results depend on the processing

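No paired analysis was possible because each group holds 1 library. Intervals cover counting error, not the spread between animals. Shares moved with the cell filter. The vehicle endothelial share was 4.43% with at least 2000 UMIs and 1000 genes, 3.62% with at most 10% mitochondrial UMIs, 4.91% with 6 UMIs over 3 rule genes and 37.7% of the 3 stromal sets. The takinib share was 0.363% with at least 2000 UMIs, 0.443% of cells with under 3% neutrophil RNA and 18.75% of the stromal sets.

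Among vehicle subsets, at least 2000 UMIs gave 37.4% venous, 37.1% capillary and 32.6% tip cells. At most 10% mitochondrial UMIs gave 17.2% arterial, 35.3% venous, 45.6% capillary, 37.7% tip, 7.91% lymphatic and 5.12% cycling cells. A limit of 2 UMIs gave 16.4% arterial and 28.9% tip cells, and a limit of 4 UMIs gave 9.29% arterial, 26.25% venous, 25.5% capillary and 19.1% tip cells.

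In the treatment comparison, where 466 genes were higher and 1185 lower past 2-fold, 765 were lower with at most 10% mitochondrial UMIs, 236 against female-origin vehicle cells and 719 with 10 CPM added to both. With the median gene set to 0, 813 were higher and 660 lower, so 55.2% of genes past 2-fold were higher against 28.2%. A minimum of 20 summed counts gave 825 higher and 1886 lower, and one of 100 gave 291 and 683.

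Of 352 list medians over 30 lists, 292 stayed within the range from the median lower to the median upper 95% bound of the list's genes, 51 left it, and 9 changed sign where that range lay on 1 side of 0. The NF-kB median was 1.64 with at most 10% mitochondrial UMIs, 2.24 against female-origin vehicle cells and 0.84 at 20 summed counts. The pan-endothelial median was -0.60 with 6 UMIs over 3 rule genes, -0.55 with the 0.2% limit, -0.68 with the median gene at 0 and -0.51 thinned. The 0.2% limit removes cells by the pan-endothelial genes themselves, so that shift was set in part by the choice of cells. The proliferation median was 0.96 with the 0.2% limit and 0.72 thinned, and the basement membrane median -0.60 thinned. Signs changed for macrophage markers, at 0.67 with at most 10% mitochondrial UMIs, 0.020 with 6 UMIs and 0.084 at both 20 and 100 summed counts, and for fibroblast matrix genes, at -1.05 with 6 UMIs, -0.98 with the 0.2% limit and -0.53 thinned. Against female-origin vehicle cells arterial genes were at 0.42 over 4 genes and tip genes at 0.30 over 8. The cause of these shifts was not tested.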

Other observations

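Markers of other blood cells appeared in the takinib endothelial cells in few barcodes. Hbb-bs, a beta globin, had 1163 counts, 98.3% of them in 1 cell, and 7 in vehicle. Pf4, platelet factor 4, had 189 counts with 21.2% in its highest cell. All 6 erythroid and platelet markers with enough counts were higher past 2-fold. Perivascular channel genes were higher as well: Kcnj8 was at 12.5 and 103 CPM, a log2 ratio of 3.04 [2.28, 3.86], and Abcc9, its partner subunit, at 1.86 [1.45, 2.28], while the pericyte genes Notch3 and Pdgfrb had 3 and 0 takinib counts.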
